A study of Arabidopsis thaliana with 24 samples.

Results

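The difference that the dcp5-1 mutation makes to polysome-bound RNA of light-treated Arabidopsis thaliana seedlings was measured on 6 Affymetrix ATH1 arrays, out of 24 in the series. These were the 3 dcp5-1 and the 3 control arrays of that RNA fraction and treatment, taken by their titles and paired by replicate number, and every probe set other than the array's own controls was a member. Both genotypes were of ecotype Col-0, and control was the plain Col-0 line. All 6 samples came from the aerial parts of 4-d-old seedlings raised in the dark and then given white light for 4 h. The series' design calls the replicates biological. The other 18 arrays hold total RNA, and both RNA fractions of seedlings kept in the dark. All mutant samples carry the one allele dcp5-1, so the effect of that allele cannot be told apart from anything else its line differs in. In whole aerial parts, more cells of a type and more RNA per cell cannot be told apart either.

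DCP5 is a protein of processing bodies, the cytoplasmic granules in which mRNAs are held out of translation or have their cap removed before decay. It belongs to a conserved family of RNA-binding proteins that repress translation and promote decapping. Polysomes are mRNAs that carry several ribosomes, so polysome-bound RNA samples the transcripts under translation. A dark-grown seedling elongates its stem and keeps its cotyledons closed, and light turns it towards leaf growth and photosynthesis. The comparison asks which transcripts differ on polysomes when DCP5 function is reduced.

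Levels are given below as log2 signal minus the median of the same array, so a level of 0 is that of the median probe set, and levels are set against each other only within a probe set. Differences are dcp5-1 minus control on the log2 scale, with the standard error (SE) of a limma fit and 3 arrays in each group. Of 22746 probe sets, 5687 with the lowest mean over all 24 arrays were left out and 17059 were tested. A probe set is called where its Benjamini-Hochberg adjusted p is under 0.05.

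No probe set of the gene table names DCP5, so its level was not analysed and does not check the genotype labels. RCA, the Rubisco activase of green tissue, lay 7.01 to 7.57 above the array median on the 6 arrays. Of 12 root markers listed, 2 have a named probe set, both expansins of root hairs. The dim one of them, EXPA7, was at -4.63, -1.20 and -2.80 in dcp5-1 replicates 1 to 3 and at -4.69, -4.93 and -4.96 in control. EXPA18 was at -0.75, -0.30 and -0.48 in dcp5-1 and at -2.17, -3.91 and -1.27 in control. Both were higher in every dcp5-1 array than in any control array, and their summed signal was at -0.65 to 0.32 in dcp5-1 and at -3.33 to -1.16 in control. The part that root tissue may have in the results below was not tested. Array medians before centring were 6.24, 6.75 and 6.32 in dcp5-1 and 6.18, 6.57 and 6.57 in control, with no difference in their means (exact two-sided permutation p = 1, the smallest possible being 0.1). The correlation across probe sets was 0.93 to 0.95 within a genotype and 0.92 to 0.94 between genotypes. Control replicate 1 had 580 probe sets at its lowest value, against 141 to 274 on the other 5 arrays.

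In dcp5-1, genes of cell wall peroxidases, lipid transfer proteins, expansins and a few lipases rose by up to 19.2-fold. None of the 3 light-harvesting, 5 photosystem and 3 Calvin cycle genes tested was called. These are too few to tell that from the 10.1% of all probe sets called. The fit called 1041 probe sets higher and 690 lower, which is 10.1% of those tested (6.1% higher and 4.04% lower). Among the calls 60.1% were higher, and 72.5% of 603 calls when the deposited values were not centred. All 3 replicate pairs moved the same way in 1026 of the 1041 and in 674 of the 690. The groups did not overlap in 867 and in 534 of them, while 10.2% of all tested probe sets had no overlap with dcp5-1 higher and 8.89% with dcp5-1 lower, 19.1% in all. Larger differences were mostly higher ones, with 484 higher and 155 lower past 1 on the log2 scale, and 118 higher and 30 lower past 2. A fit without the replicate block called 728, of which 476 were higher and 252 lower. The count was 1080 without dcp5-1 replicate 3, and 1141, 1141 and 612 without both arrays of replicate 1, 2 or 3 in every group. A single gene is named for 558 of the higher and 371 of the lower probe sets.

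The 12 highest named differences ran from 3.33 to 4.53, or 10.1-fold to 23-fold. None of these genes was at an array's lowest value on the 6 arrays, but no detection call was used here, and folds against the dim control signals are uncertain. The highest was AT5G24240, for which the tables used here give no function. Its level was 0.06, -1.32 and -0.79 in dcp5-1 replicates 1 to 3 and -4.97, -4.52 and -6.14 in control. Every dcp5-1 array lay far above every control array, by a difference of 4.53 ± 0.51 (SE, adjusted p = 2.5e-06). AT4G38080 was at 0.97, 3.45 and 3.42 in dcp5-1 and at -1.67, -1.33 and -2.64 in control (4.50 ± 0.49, adjusted p = 1.5e-06). The groups lay well apart here too, with dcp5-1 replicate 1 the lowest of the mutant arrays. The same array was the lowest dcp5-1 array for 11 of these 12 genes, and AT5G24240 is the exception. AT1G54540 differed by 4.12 ± 0.41, scpl28, a serine carboxypeptidase-like gene, by 4.08 ± 0.81, AT1G51920 by 4.06 ± 0.80 and AT5G12420 by 3.33 ± 0.44. The call of scpl28 ended without the arrays of replicate 2 (3.24, adjusted p = 0.061) or replicate 3 (3.69, adjusted p = 0.058). The remaining 6 belong to the peroxidases and the GDSL lipases.

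**Figure D1:**
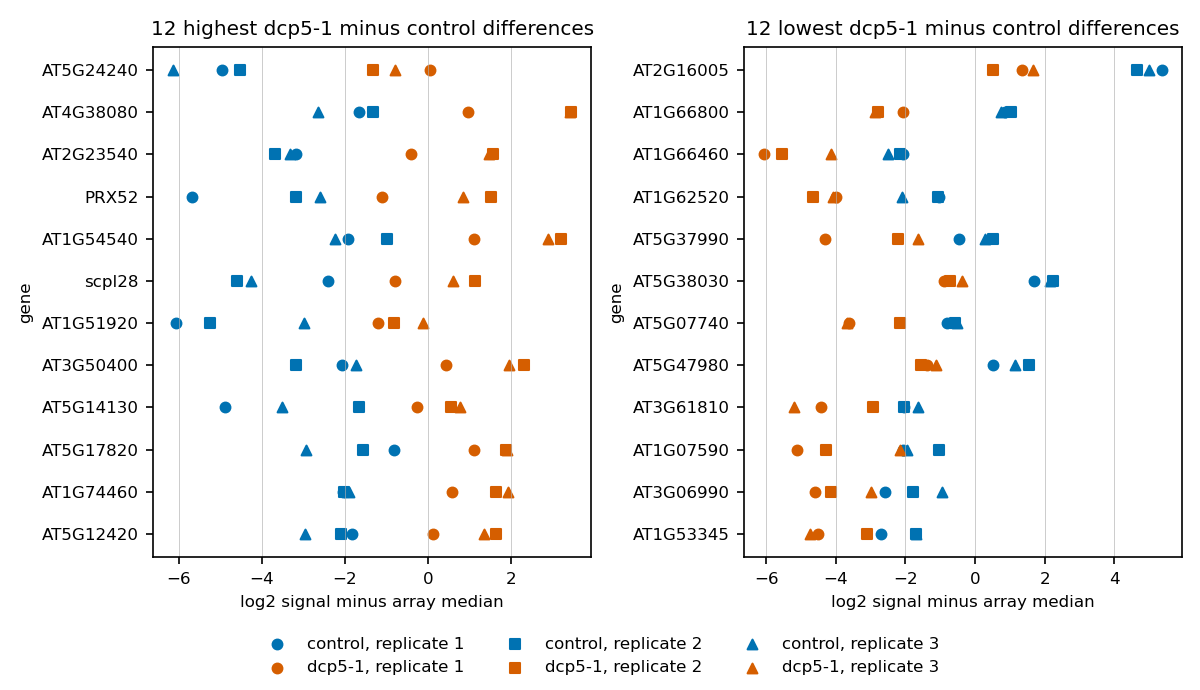
Level of the 12 genes with the highest and the 12 with the lowest named differences on each of the 6 light polysomal arrays (x axis, log2 signal minus array median; colour, genotype; shape, replicate number). In every gene the 3 dcp5-1 points lie on one side of the 3 control points, as the choice of genes requires, and replicate 1 is the lowest dcp5-1 array for 11 of the 12 genes on the left.

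Class III peroxidases are secreted haem enzymes that use hydrogen peroxide to cross-link or loosen cell walls and to polymerise lignin and suberin. Of 33 tested members 19 rose and 1 fell, so 60.6% were called against 10.1% of all probe sets. The list was chosen with earlier results of these data known, so this share supports nothing by itself. Their median difference was 1.43, while that of all tested probe sets was -0.02. The groups did not overlap in 22 members on the higher side and in 1 on the lower side (69.7% together, against 19.1% of all tested probe sets). PRX52, a peroxidase with a role in lignin formation, was at -1.10, 1.53 and 0.84 in dcp5-1 and at -5.68, -3.19 and -2.60 in control. Every dcp5-1 array lay above every control array, though the arrays of each genotype spread widely. The difference was 4.25 ± 0.59, or 19-fold (adjusted p = 3.1e-05). AT5G14130 differed by 3.72 ± 0.51 and AT5G17820 by 3.41 ± 0.34.

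AT4G36430, another peroxidase, was at 2.98, 4.75 and 4.71 in dcp5-1 and at 0.95, 0.92 and 0.78 in control. Control replicates were nearly equal while dcp5-1 replicate 1 lay below the other 2, and the difference was 3.26 ± 0.40 (adjusted p = 6.4e-06). AT5G66390 was at 4.79, 5.18 and 5.17 in dcp5-1 and at 3.56, 3.72 and 3.54 in control. Both groups were tight in this gene, and its smaller difference of 1.45 ± 0.14 had the lowest adjusted p of the family (2.1e-07). AT5G64120 and AT5G39580 rose by 2.05 ± 0.38 and 2.04 ± 0.32. The one member that fell was AT1G71695 (-0.43 ± 0.14, adjusted p = 0.042). PRXR1, at 5.56 to 5.97 on the 6 arrays, differed by -0.07 ± 0.13 (adjusted p = 0.81).

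The mean level of the 33 members was 1.06, 1.73 and 1.63 on the dcp5-1 arrays and -0.03, 0.21 and 0.04 on the control arrays. All 3 mutant means were thus higher, and replicate 1 was the lowest dcp5-1 array in 26 of the 33 members. The median difference within pairs was 0.69 for replicate 1, 1.44 for replicate 2 and 1.45 for replicate 3. EXPA7, the root hair marker, was also lowest in dcp5-1 replicate 1. The peroxidase count was 12 higher without the arrays of replicate 3, where 442 of all probe sets were higher. Without the block it was 14 higher, where 476 of all were. With the dimmest 50% of probe sets left out it was 10 higher and 1 lower among 20 members, against 750 and 602 among 11373. In light total RNA 20 members were called higher, where 5.75% of all probe sets were. In dark polysomal RNA 17 were called higher and 1 lower, where 4.7% and 4.81% of all probe sets were.

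Lipid transfer proteins are small secreted proteins that carry lipids for cuticle, suberin and defence. Of 13 tested members 8 rose and none fell, so 61.5% were called against 10.1% of all probe sets (median 0.79). But this list was written after the named genes had been seen, and its share supports nothing by itself. AT2G37870 was at 2.85, 2.71 and 2.67 in dcp5-1 and at -0.01, 0.29 and 0.08 in control. With so little spread in either group, its difference of 2.62 ± 0.22 had an adjusted p of 2.6e-08. AT5G05960 was at 3.80, 4.32 and 3.83 against 1.80, 1.63 and 1.99 (2.17 ± 0.17, adjusted p = 8.9e-09). AT3G22620 rose by 1.78 ± 0.20. A group of 4 members, AT5G48490, AT2G45180, AT2G10940 and AT4G22460, differed by 0.12 to 0.17 and were not called. The count was 4 without the arrays of replicate 3, where 612 of all probe sets were called.

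GDSL lipases are a large family of secreted esterases and lipases, some of which build cutin or suberin. Of 25 tested members 4 were called, all higher, which is 16% against 6.1% of all probe sets called higher, and the family's median was 0.19. As with the peroxidases, the list was chosen with earlier results known, so its share supports nothing by itself. With the dimmest 50% of probe sets left out 2 of 16 were called. AT2G23540 was at -0.41, 1.56 and 1.46 in dcp5-1 and at -3.18, -3.68 and -3.32 in control. It passed from far below the array median to above it in 2 of 3 replicates (4.26 ± 0.56, adjusted p = 1.6e-05). AT3G50400 differed by 3.89 ± 0.63 and AT1G74460 by 3.38 ± 0.45, while AT5G55050 differed by 1.95 ± 0.20. The other 21 members lay between -0.50 and 0.85. Of 23 listed suberin and Casparian strip genes 1 was tested, AT2G48130, listed as a lipid transfer protein of that pathway, which rose by 1.51 ± 0.24 (adjusted p = 2.0e-04) and was not called without the replicate block.

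Expansins loosen cell walls during growth, and xyloglucan endotransglucosylases (XTH) cut and rejoin the xyloglucan that ties cellulose together. Of 21 tested members of both families 10 rose and none fell (47.6% called against 10.1% of all probe sets, median 0.61). This list too was chosen with earlier results of these data known, so its share supports nothing by itself. XTH33 was at 2.0, 1.88 and 1.66 in dcp5-1 and at 0.58, 0.48 and 0.55 in control. The arrays of each genotype agreed closely, and the difference was 1.31 ± 0.19 (adjusted p = 6.7e-05). XTH18 was at 1.72, 2.59 and 1.78 against 0.09, 1.32 and 0.19 (1.5 ± 0.23, adjusted p = 1.3e-04). Its replicate 2 was the highest in both genotypes, the groups did not overlap, and without the replicate block it was not called (adjusted p = 0.097). XTH20 rose by 1.65 ± 0.29 and XTH19 by 1.25 ± 0.33. The expansins called were EXPA18 (1.94 ± 0.39), EXPA4 (0.99 ± 0.19), EXPA9 (0.73 ± 0.20), EXPA8 (0.70 ± 0.15) and EXLA1 (0.64 ± 0.20), and XTH16 (0.96 ± 0.22) was the remaining one. All 10 had their groups apart, with each dcp5-1 array above each control array, as had 867 of the 1041 probe sets called higher. EXPA18 is the root hair gene given above, and its call ended without the arrays of replicate 2 (1.1, adjusted p = 0.063). The list had 6 calls without the arrays of replicate 2 and 5 without those of replicate 3. Of all probe sets 1141 and 612 were called in these fits.

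**Figure D2:**
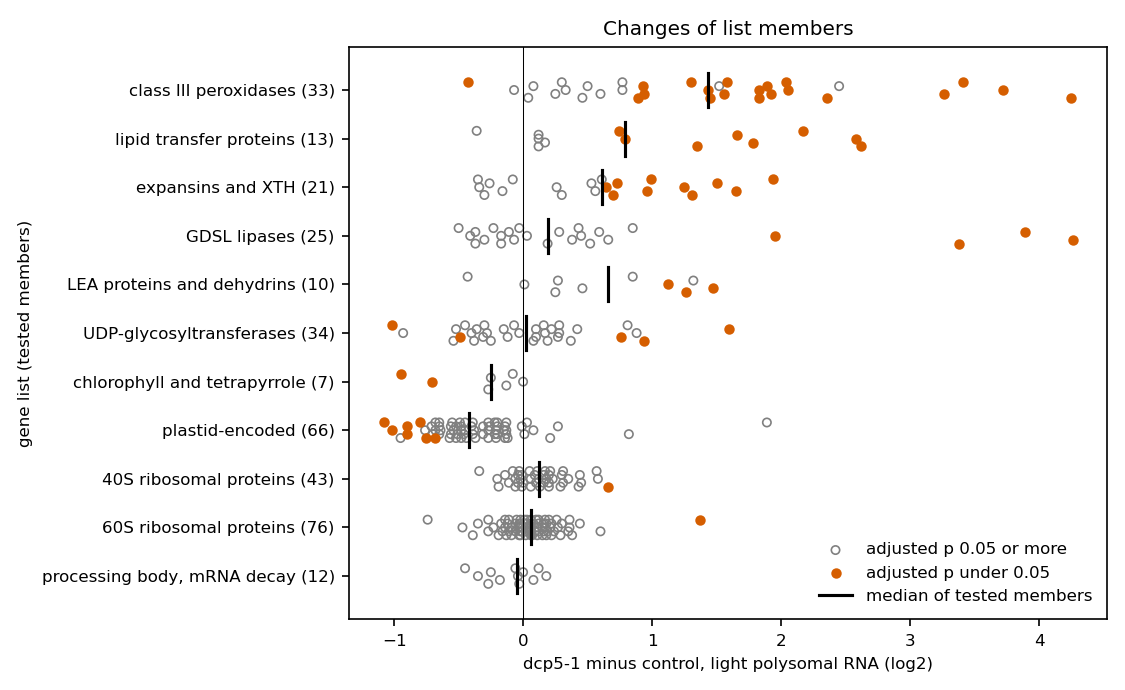
Difference between dcp5-1 and control in light polysomal RNA (x axis, log2) for each tested member of 11 gene lists, with called members filled and the median as a black bar; vertical offsets only separate the points. Most peroxidases lie right of 0 with a median of 1.43, the GDSL lipases are near 0 apart from 4 members at 1.95 to 4.26, and the ribosomal protein and processing body lists centre near 0.

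The 12 lowest named differences ran from -3.84 to -2.09. The tables used here give a locus and no symbol for any of them. AT2G16005 was at 1.34, 0.50 and 1.65 in dcp5-1 and at 5.37, 4.65 and 4.98 in control. Every dcp5-1 array was thus far below every control array, a 14.3-fold lower signal (-3.84 ± 0.28, adjusted p = 3.3e-09). AT1G66800 was at -2.08, -2.80 and -2.89 against 0.87, 1.04 and 0.74 (-3.47 ± 0.44, adjusted p = 1.1e-05). AT5G38030 was at -0.88, -0.73 and -0.38 against 1.69, 2.23 and 2.14 (-2.68 ± 0.25, adjusted p = 1.5e-07). In both genes the control arrays lay above the array median and every dcp5-1 array below it. AT5G47980 differed by -2.41 ± 0.32 (adjusted p = 1.5e-05).

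Most of the other 8 genes lay below the array median in both genotypes, such as AT1G66460, with means of -5.25 in dcp5-1 and -2.24 in control. No detection call was used, so the sizes of these differences are uncertain. Among the 8, AT1G62520 (-2.85 ± 0.57) kept its call without any single array or replicate number. The remaining 7 lost theirs in at least 1 such fit. AT1G66460 (-3.01 ± 0.61) lost it without the arrays of replicate 2 (adjusted p = 0.067), and AT1G53345 (-2.09 ± 0.42) without those of replicate 3 (-1.61, adjusted p = 0.13). AT5G37990 (-2.83 ± 0.72) lost its call without dcp5-1 replicate 1 (-2.25, adjusted p = 0.082) or control replicate 2 (-2.67, adjusted p = 0.051). Replicate 1 was the lowest of the 6 arrays in this gene, at -4.32, where the other dcp5-1 arrays were at -2.21 and -1.63. AT3G61810 (-2.29) lost it without dcp5-1 replicate 1 (adjusted p = 0.05) or 3 (adjusted p = 0.13). AT1G07590 (-2.16) lost it without dcp5-1 replicate 1 (adjusted p = 0.09) or 2 (adjusted p = 0.074) or control replicate 2 (adjusted p = 0.067). AT5G07740 (-2.50) and AT3G06990 (-2.14) each lost it without any one of 4 arrays. Those were control replicates 2 and 3 and dcp5-1 replicates 1 and 3 for AT5G07740 (adjusted p = 0.061 to 0.11), and control replicates 1 and 3 and dcp5-1 replicates 1 and 2 for AT3G06990 (adjusted p = 0.073 to 0.14).

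None of the nuclear photosynthesis genes tested was called, but most listed ones have no named probe set. With 10.1% of all probe sets called, so few genes cannot show that the group was spared. The 3 light-harvesting genes tested, of 20 listed, lay between -0.36 and 0.03, the 5 photosystem and electron transport genes, of 30 listed, between -0.24 and 0.01, and the 3 Calvin cycle genes, of 20 listed, between 0.01 and 0.07. Among 7 chlorophyll and tetrapyrrole genes 2 fell and none rose (28.6% called against 10.1% of all probe sets, median -0.25). PORB, a protochlorophyllide oxidoreductase that makes chlorophyll in light, was at 3.29, 3.84 and 3.16 in dcp5-1 and at 4.34, 4.19 and 4.6 in control. Every dcp5-1 array was below every control array (-0.95 ± 0.19, adjusted p = 0.0023), and the call ended without the arrays of replicate 3 (-0.70, adjusted p = 0.13). HEME1, a uroporphyrinogen decarboxylase of the same pathway, fell by 0.71 on the log2 scale (adjusted p = 0.0065). Its call ended without control replicate 1 (-0.56, adjusted p = 0.053) or dcp5-1 replicate 3 (-0.53, adjusted p = 0.071).

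Of 66 tested genes encoded in the plastid genome 7 fell and none rose, a share of 10.6% where 4.04% of all probe sets were called lower, with a median of -0.42 and 7 members above 0. This list was also chosen with earlier results known, so the share supports nothing by itself. In light total RNA 8 members were called lower, where 3.08% of all probe sets were (list median -0.45). In dark polysomal RNA 23 were called lower, where 4.81% of all probe sets were (list median -0.66). rbcL, the large subunit of Rubisco, was at 3.77, 4.26 and 2.64 in dcp5-1 and at 4.31, 4.74 and 3.89 in control. The groups overlapped, since replicate 2 was the highest and replicate 3 the lowest in both, and it was within pairs that dcp5-1 was lower (-0.75 ± 0.18, adjusted p = 0.0076). Its call ended without control replicate 3 (-0.58, adjusted p = 0.068) or dcp5-1 replicate 3 (-0.65, adjusted p = 0.06). Without the replicate block no plastid gene was called. The count of 7 became 3 without dcp5-1 replicate 1 or 3, 4 without control replicate 2, and 2 lower with 1 higher without control replicate 3. Without both arrays of replicate 3 it was 1 lower and 1 higher. None of 10 mitochondrial genes was called, where 10.1% of all probe sets were.

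In the flavonoid pathway none of 3 genes passed. DFR, dihydroflavonol reductase, was at -0.76, 0.43 and -0.32 in dcp5-1 and at 0.06, 2.09 and 0.89 in control. UF3GT, an anthocyanin glycosyltransferase, was at -0.24, 0.33 and 0.08 against 0.22, 2.44 and 1.19. Each dcp5-1 array was below its own control pair in both genes, but the groups overlapped, and the differences of -1.23 ± 0.43 had adjusted p = 0.069 and 0.074. Of 34 UDP-glycosyltransferases, which add sugars to small molecules, 3 rose and 2 fell. That is 14.7%, near the 10.1% called of all probe sets. UGT78D1, a flavonol rhamnosyltransferase, fell by 1.02 on the log2 scale (adjusted p = 0.0071), a call that ended without the arrays of replicate 1 or 3. Of 11 cytochromes P450 18.2% were called, as CYP71B23 rose by 1.28 ± 0.19 and CYP84A4 fell by 0.89 on the log2 scale.

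Stress and hormone genes gave scattered calls. The share of all probe sets was 10.1%, and each of these lists has few tested members. Among 5 heat shock genes (60% called) Hsp70-2 rose by 1.32 ± 0.28 and AT1G53540 by 1.13 ± 0.16, while AT5G37670 fell by 0.92 on the log2 scale. Hsp70-2 was not called without the arrays of replicate 3 (adjusted p = 0.065). The call of AT5G37670 ended without dcp5-1 replicate 3 (-0.74, adjusted p = 0.061). Among 10 late embryogenesis abundant (LEA) proteins and dehydrins, which accumulate in drying seeds and under water stress, 3 rose and none fell (30% called). AT2G46140 rose by 1.12 ± 0.18, and the count was 1 without control replicate 2 or 3 or without dcp5-1 replicate 2 or 3. WRKY53 (1.28 ± 0.27) and WRKY47 (1.04 ± 0.23), WRKY transcription factors of which the first acts in leaf senescence, rose among 5 tested (40% called). Neither was called without the replicate block or without the arrays of replicate 3. Of 10 auxin genes 1 rose and 2 fell (30% called). IAA34 (-1.25 ± 0.28) and GH3.3 (-0.83 ± 0.20), a repressor of the response and an enzyme that conjugates auxin, fell. IAA34 was not called without the arrays of replicate 2 (adjusted p = 0.051) or 3 (-0.94, adjusted p = 0.16), nor GH3.3 without those of replicate 2 (adjusted p = 0.066) or 3 (adjusted p = 0.092). WES1, another conjugating enzyme, rose by 0.44 ± 0.13, and its call ended without any one of the 6 arrays (adjusted p = 0.064 to 0.098). EIN3, the ethylene transcription factor, rose by 0.50 ± 0.14 (adjusted p = 0.023), with adjusted p = 0.075 to 0.12 without control replicate 1 or 3 or dcp5-1 replicate 1 or 3.

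No tested gene of the machinery to which DCP5 belongs was called. At the 10.1% share of all probe sets, a list this short cannot show that the machinery was unchanged. The 12 tested genes of processing bodies and mRNA decay, of 32 listed, lay between -0.45 and 0.18 with a median of -0.05. The lowest was UPF3, a factor of nonsense-mediated decay, at 0.99, 0.60 and 1.08 in dcp5-1 and at 1.76, 1.21 and 1.04 in control. The groups overlapped, and the difference was -0.45 ± 0.18 (adjusted p = 0.12). Of 43 cytosolic 40S ribosomal protein genes 1 rose, and of 76 of the 60S subunit also 1, shares of 2.33% and 1.32% under that of all probe sets. Their medians were 0.12 and 0.06. Within replicate pairs 1 to 3 the median differences were -0.19, 0.61 and -0.10 for the 40S genes. For the 60S genes they were -0.30, 0.46 and 0, so the pairs did not share a direction in either list. These 2 calls, AT5G39850 (0.66) and AT3G48960 (1.37), were each lost without any one of 4 arrays. The arrays were control replicates 2 and 3 and dcp5-1 replicates 2 and 3 for AT5G39850 (adjusted p = 0.074 to 0.23), and control replicate 3 and each dcp5-1 array for AT3G48960 (adjusted p = 0.058 to 0.19). Of 10 autophagy genes 1 was called (10%), a share like that of all probe sets. This was APG8A, which rose by 0.69 ± 0.17, a call that ended without control replicate 2 (0.49, adjusted p = 0.088) or dcp5-1 replicate 3 (0.53, adjusted p = 0.089). No call was made among the 7 tubulin genes tested, 4 of 31 listed light signalling genes, 1 of 13 clock genes, 1 of 10 translation factors, 2 of 13 jasmonate and defence genes and 2 of 7 storage lipid genes. Lists this short cannot show an absence of change either.

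Total RNA of light-treated seedlings, on other arrays, shows whether the differences on polysomes exceeded those of the whole RNA pool. There the fit called 981 probe sets higher and 525 lower (8.83% of those tested, 5.75% higher and 3.08% lower). Higher ones were 65.1% of these calls, and 79.2% of 544 without centring. The count was 598 without the replicate block, and 899 and 473 without the arrays of replicate 2 or 3. Among single arrays it was 982 without dcp5-1 replicate 1 and 841 without control replicate 3. Of these, 646 were also called higher on polysomes, which is 62.1% of the polysomal and 65.9% of the total calls, and 241 were lower in both, 34.9% and 45.9%. Of the 1041 higher polysomal calls 1019 were above 0 in total RNA, and of the 690 lower ones 664 were below 0. The Pearson correlation of both differences across the 17059 probe sets was 0.71, as a description, since genes are not independent replicates and the labels do not say whether both fractions came from the same seedlings.

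The change in polysomal RNA minus that in total RNA was then tested in the same fit. No probe set passed (0% called), 654 had an unadjusted p under 0.05, the smallest adjusted p was 0.58, and the median SE of this difference of differences was 0.29. There was 1 call, lower, without dcp5-1 polysomal replicate 1, and 1, higher, without control polysomal replicate 2 or 3. AT1G50440 was among the 10 named genes with the lowest p. It was at 1.93, 1.53 and 1.66 in dcp5-1 and at 2.92, 2.85 and 2.86 in control on polysomes, a difference of -1.17 ± 0.15, and it differed by -0.24 in total RNA. Control arrays were almost equal there, and all dcp5-1 arrays were lower. AT1G07030 differed by -0.96 on polysomes and by 0.21 in total RNA, and AT3G01850 by -0.82 and 0.22. The highest members of the main families were called in both fractions, PRX52 at 4.25 and 3.17, AT2G23540 at 4.26 and 5.36 and AT2G37870 at 2.62 and 1.79. Of the 12 highest genes 11 were called in total RNA as well, and of the 12 lowest 6. AT5G07740, AT1G07590 and AT3G06990, at -2.50, -2.16 and -2.14 on polysomes, were at 0.16, -0.02 and -0.29 in total RNA.

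**Figure D3:**
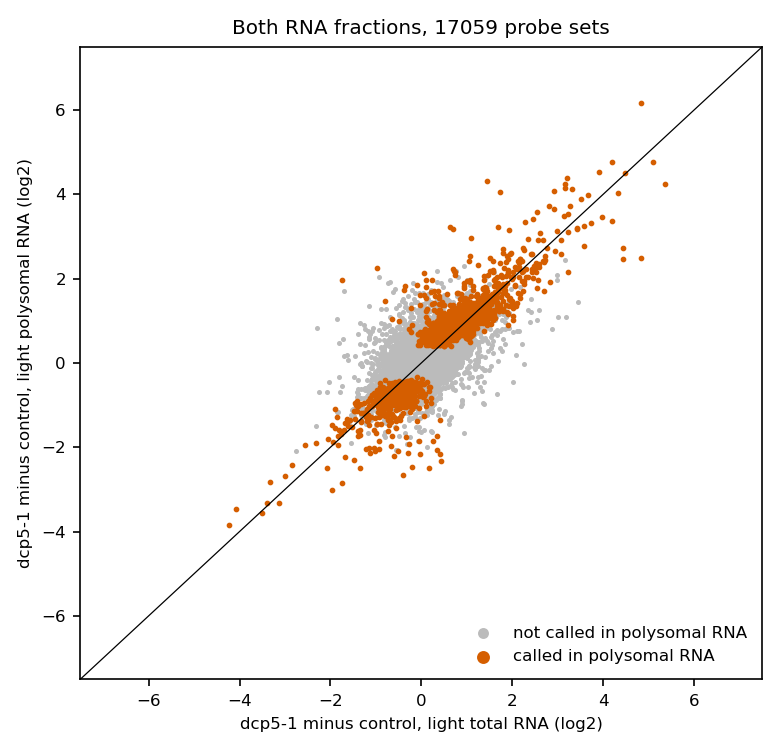
Difference between dcp5-1 and control of 17059 probe sets in light total RNA (x axis, log2) and in light polysomal RNA (y axis, log2), with probe sets called on polysomes in orange and a line of equal change. The points follow the line (r = 0.71), and no probe set's departure from it passed the test.

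Polysomal RNA of seedlings kept in the dark shows whether the genotypes differed in the same genes without light. It had 802 probe sets called higher and 821 lower (9.51% of those tested, 4.7% higher and 4.81% lower). The count was 579 without the replicate block, and 1026, 555 and 612 without the arrays of replicate 1, 2 or 3. Among single arrays it was 817 without control replicate 2, 878 without dcp5-1 replicate 2 and 990 without dcp5-1 replicate 3. Of the light calls 459 were higher in the dark as well, 44.1% of the light and 57.2% of the dark calls, and 263 were lower in both, 38.1% and 32%. This dark comparison depends on centring, because the median over all probe sets differed by 0.88 between the genotypes before it, and without centring 12384 were called higher and 30 lower. PRX52 differed by 5.36 in the dark and 4.25 in light, AT2G23540 by 4.06 and 4.26, and AT2G16005 by -3.90 and -3.84. All 12 of the highest genes and 6 of the 12 lowest were called in the dark too.

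The light difference minus the dark difference was called for 48 probe sets (0.281%), 34 higher (0.199%) and 14 lower (0.0821%), with 1332 at an unadjusted p under 0.05. Without centring these were 12 higher and 5801 lower, as each dark value then moves by the shift given above. Of the 34, 29 were also called higher in light, and 10 were called lower in the dark. ECS1 moved most. In light it was at 4.91, 4.04 and 4.99 in dcp5-1 and at 4.91, 5.27 and 5.41 in control, and in the dark at 2.51, 2.75 and 2.53 against -0.80, -1.10 and -0.40. The genotypes overlapped in light (-0.55 ± 0.26, adjusted p = 0.20), while in the dark every dcp5-1 array was far above control (3.36), and the light minus dark difference was -3.91 ± 0.37 (adjusted p = 3.2e-06). AT1G70270 was lower in dcp5-1 in the dark (-3.10), while in light the genotypes overlapped (0.55 ± 0.32, adjusted p = 0.31). Its light minus dark difference was 3.64 ± 0.45 (adjusted p = 1.3e-04, and 0.075 without the replicate block).

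Some cell wall genes were among the 48 probe sets whose genotype difference differed by light condition. EXPA9 was at 0.24, 0.38 and 0.13 in dcp5-1 and at -0.50, -0.36 and -0.57 in control in light, and at 2.23, 1.38 and 1.89 against 3.24, 3.18 and 3.48 in the dark. It was thus higher in the mutant in light (0.73) and lower in the dark (-1.47), and the test of that change gave 2.19 ± 0.28 (adjusted p = 1.6e-04, and 0.074 without the arrays of replicate 3). XTH33 was higher in light (1.31) and at -0.59 in the dark (adjusted p of the difference 7.8e-04), and EXPA8 at 0.70 and -0.25 (adjusted p of the difference 0.046). These are 3 of 21 expansin and XTH list members, where 0.281% of all probe sets were called, and none was called the other way. The list's median was 0.61 in light and 0.05 in the dark. Of the 33 peroxidases 2 were called, AT4G30170 (1.43 in light, -0.22 in the dark) and AT4G11290 (0.60, adjusted p = 0.14, and -1.48). The call of AT4G11290 ended without the arrays of replicate 2 (1.53, adjusted p = 0.16) or 3 (2.15, adjusted p = 0.19). Both lists were chosen with earlier results of these data known, so these counts support nothing by themselves. The lipid transfer protein AT1G62510 rose in both, by 1.35 in light and 2.96 in the dark, and the difference of -1.61 ± 0.28 was called. That call ended without the replicate block (adjusted p = 0.58) or without the arrays of replicate 2 (adjusted p = 0.12) or 3 (adjusted p = 0.32). The count of 48 was 8 without the replicate block, and 33, 23 and 4 without the arrays of replicate 1, 2 or 3.

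**Figure D4:**
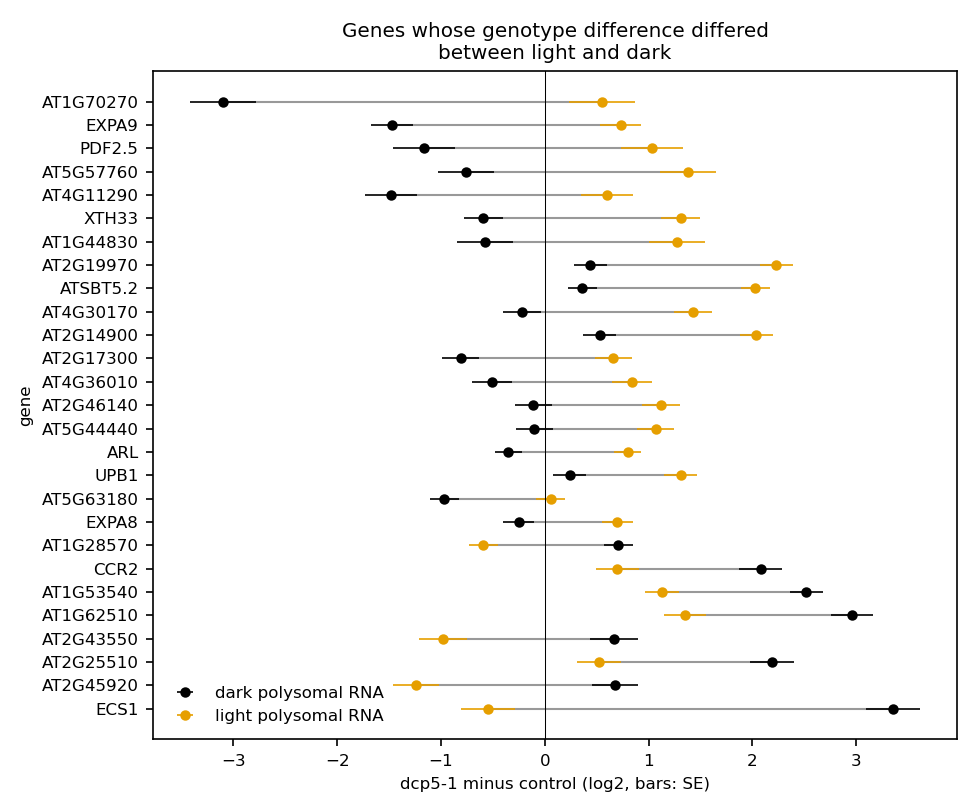
Difference between dcp5-1 and control (x axis, log2, bars show the SE) in dark (black) and light (orange) polysomal RNA for the 27 named genes whose difference changed between the conditions. AT1G70270, EXPA9 and XTH33 are below 0 in the dark and above it in light, and ECS1 at the bottom is at 3.36 in the dark and -0.55 in light.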

How the data were processed

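The deposited values are log2 signals of ATH1 arrays, whose processing used GCOS 1.4 per the submitters' processing notes; per the labels, biotinylated cRNA was hybridised. A tied lowest value on each array is a floor; on polysomal arrays it differs from array to array, so their levels were compared only after centring. Arrays give no count of molecules, so their number limits the precision. Values were centred on each array's median over 22746 probe sets, after 64 controls were removed. The lowest 25% by mean over the 24 arrays were left out. limma 3.58.1 in R 4.3.3 fitted the 8 group means with replicate number as an additive block, an intensity trend and Benjamini-Hochberg adjustment over 17059 probe sets in each of 5 comparisons. The procedure was tested on simulated data. The block follows the pairing by replicate number: residuals of arrays with the same number correlated at 0.31, 0.19 and 0.21, those with other numbers at -0.22 to 0.07. Replicates measure the spread between these samples.

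The probe table gives 1 gene for 13513 probe sets, several for 503 and none for 8730. For a listed gene the probe set with the highest mean was taken. Named genes are the 12 highest and 12 lowest called differences with 1 gene and no overlap of the groups, up to 3 genes of each of 32 lists with the smallest adjusted p, and, for the differences of differences, the 5 highest and 5 lowest called or else the 10 with the smallest p; further list members are given as examples, and not every gene the rule takes is printed. The comparison and the lists were chosen with earlier results of these data known. Family lists were written by locus after the tables were found to hold no descriptions, so family membership is not from the files, and the suberin and lipid transfer lists after the named genes had been seen. Alternatives were no centring, quantile normalisation, no block, fewer arrays in the fit, other dim filters, no trend, array weights, and fits that omit 1 array or 1 replicate number.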

Additional observations from a re-analysis of the deposited data

Results flagged for a closer look

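The difference between dcp5-1 and control changed between light and dark polysomal RNA, by a test of that change itself, in 48 probe sets. The named genes with the highest values of light minus dark were AT1G70270 (3.64), EXPA9 (2.19), PDF2.5 (2.19), AT5G57760 (2.14) and AT4G11290 (2.07), and those with the lowest were ECS1 (-3.91), AT2G45920 (-1.93), AT2G25510 (-1.67), AT2G43550 (-1.65) and AT1G62510 (-1.61). PDF2.5, a plant defensin, was at 1.03 in light and -1.16 in the dark, and AT5G57760 at 1.38 and -0.76. AT2G45920 was at -1.24 in light and 0.68 in the dark, AT2G43550 at -0.98 and 0.67, and AT2G25510 at 0.52 and 2.19. Of these 10 genes 8 kept their call without any single array. PDF2.5 lost it without dcp5-1 dark replicate 1 (adjusted p = 0.054) or control dark replicate 3 (adjusted p = 0.077). AT2G43550 lost it without dcp5-1 dark replicate 1 (adjusted p = 0.079) or without light replicate 3 of either genotype (adjusted p = 0.072 for each). Groups of 3 arrays are too small for a test of outlying samples.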

How the results depend on the processing

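For dcp5-1 against control in light polysomal RNA, where 1731 probe sets were called, the count was 603 without centring, 728 with no replicate block and 1146 with the compared groups alone, and 612 to 1416 when an array or replicate number was left out. In light total RNA (1506) it was 544 without centring, 598 with no block, 2779 with array weights and 473 to 1373 with arrays left out. In dark polysomal RNA (1623) it was 12414 without centring, 579 with no block and 555 to 1434 with arrays left out. The change from dark to light (48) had 5813 calls without centring, 8 with no block, 30 with the compared groups or the polysomal arrays alone, and 4 to 61 with arrays left out. The change from total to polysomal RNA had 0 calls, except for 1 each without light polysomal dcp5-1 replicate 1, control replicate 2 or control replicate 3, so 0 to 1 with arrays left out. Other counts stayed within 1.5 times. Of 60 called named genes none changed sign, 41 kept their call without any single array and 26 under every alternative, up to 18 for a gene. Of the 10 named for light against dark 1 did. Leaving out replicate 3 gave the lowest counts in light polysomal RNA, light total RNA and the change from dark to light, and replicate 2 in dark polysomal RNA, and the cause was not tested. Dim probe sets carry the least certain values, and 3 arrays in a group limit which differences can be called.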

Other observations

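UPB1, a bHLH factor that represses peroxidase genes in the root, was named after its values were seen. It was at 4.19, 3.27 and 3.06 in dcp5-1 and at 2.76, 2.15 and 1.65 in control in light polysomal RNA. Each dcp5-1 array was above all control arrays, a difference of 1.31 ± 0.16 (limma adjusted p = 4.6e-06). In total RNA it differed by 1.71 ± 0.16, and in dark polysomal RNA by 0.24 ± 0.16 (adjusted p = 0.38), and light minus dark gave 1.07 ± 0.22 (adjusted p = 0.028).

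Other genes chosen after their values were seen had small spread between replicates. ATSBT5.2, a subtilase, was at 1.38, 1.49 and 1.29 in dcp5-1 and at -0.49, -0.69 and -0.76 in control in light polysomal RNA. The arrays of each genotype lay close together, for a difference of 2.03 ± 0.14 (limma adjusted p = 1.2e-09). It was 2.03 in light total RNA as well and 0.36 in dark polysomal RNA (adjusted p = 0.11), and the change between light and dark was 1.67 ± 0.20 (adjusted p = 9.0e-05). AT2G14900 was at 5.29, 5.69 and 5.46 against 3.12, 3.66 and 3.55 (2.04 ± 0.16), and at 0.53 in the dark. AT2G19970 differed by 2.23 ± 0.16 in light and 0.44 in the dark. ARL, a growth regulator related to ARGOS, was at 0.80 ± 0.13 in light and -0.35 in the dark. In all of these the dcp5-1 and control arrays in light did not overlap.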
